A study of Mus musculus with 6 samples.

Results

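The cholesterol synthesis and sterol regulation genes were examined in splenic B cells cultured with or without CpG. They were taken as a list of 35 symbols, comprising the enzymes from acetyl-CoA to cholesterol, the sterol-sensing proteins that control them, sterol carriers, and the liver X receptors (LXR) with their targets. Sc4mol and Msmo1 on that list are names of the same gene, which the files hold as Sc4mol, so the list gave 34 of the 23420 genes in the files. The test for differential expression covered 32 of them, among the 11233 genes that exceeded the level of 10 reads in 3 or more samples. Nr1h3 and Ch25h lay below this filter.

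B cells were bead-purified from the spleens of wild-type BALB/c mice of 7 to 11 weeks. Both groups were cultured for 4 hours. The CpG-stimulated group (3 samples) received the TLR9 agonist CpG ODN 1826 at 10 μg/ml, and the unstimulated group (3 samples) received none. No transgene or mutant allele was present in either group, and the comparison asked which transcripts TLR9 ligation changes in normal B cells.

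Cells make cholesterol through the mevalonate pathway, which builds isoprenoid units from acetyl-CoA, joins them to squalene and closes squalene into lanosterol, the first sterol. Transcription of these enzymes is driven by SREBP2, which Scap escorts out of the endoplasmic reticulum when membrane sterol is low and which Insig proteins hold back when sterol is plentiful. LXRs respond to oxysterols in the opposite situation and induce cholesterol efflux and the degradation of lipoprotein receptors. Lymphocytes that leave the resting state are known to need sterol for new membrane.

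The promoter sequences of 8 of these genes are shown because they cover both directions of change and hold letters known from SREBP targets. Each is the 180 bases before a start site annotated by RefSeq (GRCm38.p6), written 5′ to 3′ on the strand of the gene. The gene positions given further on are from GENCODE, where some starts differ. By those positions the Sc4mol stretch lies within the gene, and the stretches of Idi1, Lss, Insig1 and Srebf2 run into it. Capitals mark the CCAAT box (bound by NF-Y; ATTGG when read from the other strand), the SRE-like letters TCACNCCA and the E-box CACGTG, all searched on both strands.
Idi1 (chr13:8885426-8885605, plus strand): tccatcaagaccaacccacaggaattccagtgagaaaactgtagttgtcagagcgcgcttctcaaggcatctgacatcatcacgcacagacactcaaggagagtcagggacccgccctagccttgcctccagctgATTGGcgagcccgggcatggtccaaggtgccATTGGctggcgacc
Lss (chr10:76531425-76531604, plus strand): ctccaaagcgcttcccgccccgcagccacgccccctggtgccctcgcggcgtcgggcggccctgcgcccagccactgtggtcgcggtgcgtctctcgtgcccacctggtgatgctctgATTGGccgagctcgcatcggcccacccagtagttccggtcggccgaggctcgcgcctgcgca
Hmgcs1 (chr13:119690171-119690350, plus strand): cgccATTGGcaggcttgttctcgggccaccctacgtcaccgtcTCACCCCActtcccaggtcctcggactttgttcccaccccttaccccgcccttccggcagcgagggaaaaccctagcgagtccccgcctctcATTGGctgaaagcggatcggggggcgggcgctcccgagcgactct
Sc4mol (chr8:64733579-64733758, minus strand): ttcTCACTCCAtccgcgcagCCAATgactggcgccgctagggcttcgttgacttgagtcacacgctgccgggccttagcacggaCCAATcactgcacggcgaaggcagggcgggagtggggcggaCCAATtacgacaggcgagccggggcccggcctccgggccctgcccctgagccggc
Insig1 (chr5:28071232-28071411, plus strand): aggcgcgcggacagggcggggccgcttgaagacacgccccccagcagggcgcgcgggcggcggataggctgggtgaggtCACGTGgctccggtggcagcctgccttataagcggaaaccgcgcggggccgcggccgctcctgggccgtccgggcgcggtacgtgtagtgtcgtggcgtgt
Srebf2 (chr15:82147089-82147268, plus strand): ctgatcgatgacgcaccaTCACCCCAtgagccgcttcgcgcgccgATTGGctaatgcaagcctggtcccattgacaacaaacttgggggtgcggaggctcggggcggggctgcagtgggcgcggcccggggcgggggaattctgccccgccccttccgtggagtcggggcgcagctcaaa
Abca1 (chr4:53159896-53160075, minus strand): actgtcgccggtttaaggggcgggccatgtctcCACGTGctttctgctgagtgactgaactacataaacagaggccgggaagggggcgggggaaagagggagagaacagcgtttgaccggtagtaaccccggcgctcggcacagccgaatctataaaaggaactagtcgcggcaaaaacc
Mylip (chr13:45389562-45389741, plus strand): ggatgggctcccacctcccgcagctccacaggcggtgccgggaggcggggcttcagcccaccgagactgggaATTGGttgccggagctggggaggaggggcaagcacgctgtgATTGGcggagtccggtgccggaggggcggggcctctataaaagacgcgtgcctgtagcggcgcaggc

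In these stretches Idi1, Lss, Hmgcs1 and Sc4mol encode enzymes that were higher with CpG, Insig1 and Srebf2 encode regulators, and Abca1 and Mylip encode LXR targets that were lower with CpG. The search covered 250 bases before to 50 bases after each start. A window was given for 28 of the 34 genes, and those 28 genes had 37 windows. Windows for Fdps, Fdft1, Sqle, Npc1, Stard4 and Abcg1 were not used here.

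A CCAAT box was found in 23 of 37 windows (62.2%), against 37.4% of all 32851 windows and 37.9% of the windows of genes tested. Of the 15 enzyme genes with a window, 14 held a CCAAT box (93.3%, against 43.2% of genes tested) and Acat2 held none. The SRE-like letters stood in 3 of 37 windows (8.11%, against 4.36% of all windows), starting at -137 in Hmgcs1, -177 in Sc4mol and -162 in Srebf2. The E-box was found in 7 of 37 windows (18.9%, against 7.15% of all windows and 10.4% of those of genes tested). Both Scap windows held the same E-box, so by gene it was 6 of 28 (21.4%, against 12.3% of genes tested). It stood in 4 of 12 genes higher with CpG and in 1 of 9 lower. The CCAAT box was present in 10 of 13 windows of genes higher with CpG and in 7 of 12 windows of genes lower with CpG, so in these windows it was found with either direction of change. A match describes the letters only, and no binding was measured.

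**Figure D1:**
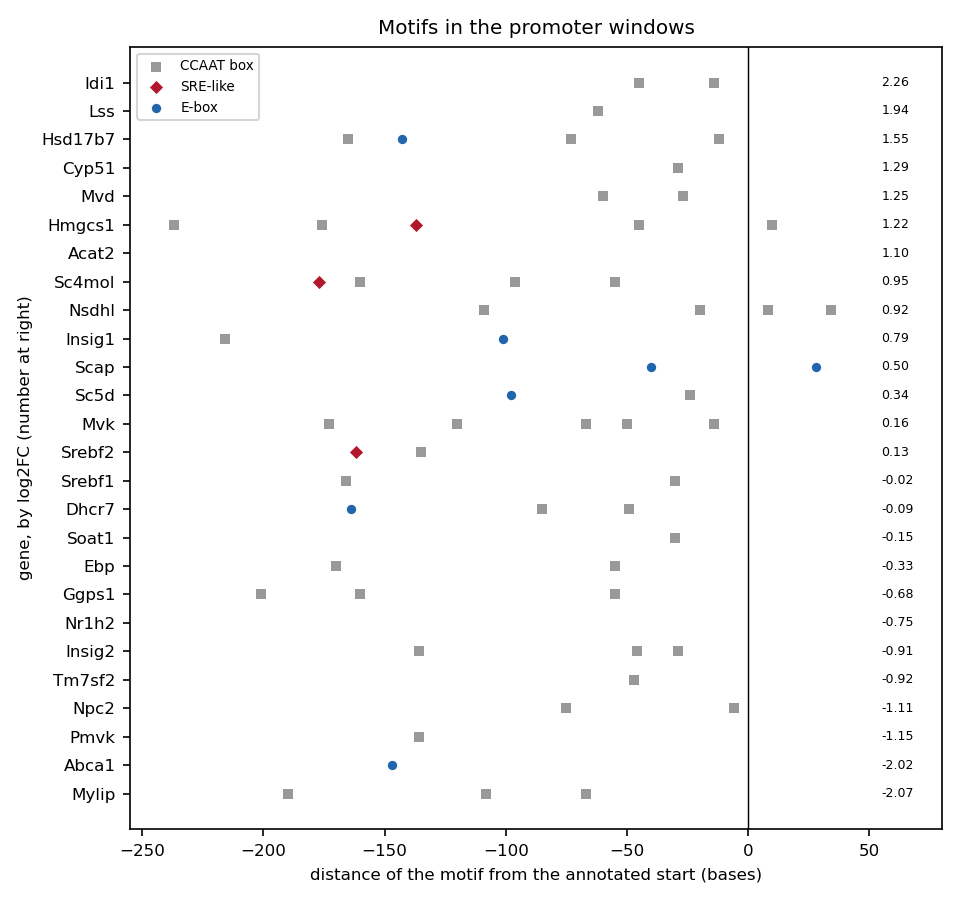
Position of each motif from the annotated start, in bases, for the genes tested that have a promoter window, ordered by log2FC (printed at right). Squares are CCAAT boxes, diamonds SRE-like letters and circles E-boxes. CCAAT boxes are found from the top of the order (Idi1) to the bottom (Mylip).

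The values are log2 CPM (CPM being read counts scaled to a common library total) as the authors normalised them. On this scale a gene without a read sits at -5.15, 10 reads at -0.76, and the common library size implied is 17.8 M reads. Differences are log2FC, CpG-stimulated minus unstimulated, tested with limma and adjusted over all 11233 genes (false discovery rate, FDR). "Raised" below means a log2FC above 1 with FDR under 0.05 and "lowered" a log2FC below -1 with FDR under 0.05. Quantile normalisation gives every library the same distribution, so a change in total RNA per cell is not visible, and fewer cells of a type cannot be told apart from less RNA per cell. Labels give no separate culture or animal for each sample, so the p-values measure the spread between these samples, which may be partly technical. An exact permutation test of 3 against 3 samples cannot give a p below 0.1.

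The B cell label was borne out: all 8 B cell markers passed the filter, with summed levels of 2604 to 2999 CPM with CpG and 4103 to 4758 CPM without, and 4 of them were lowered (Cd79a, log2FC -1.62). The 10 myeloid markers summed to 167–183 CPM with CpG and 195–240 CPM without, mostly from Mpeg1, which B cells also express, and 6 of them passed the filter. Of 7 T cell markers 1 passed (Lck), of 4 NK cell markers 0 passed, and of 4 plasmacytoid dendritic cell markers 3 passed, with the defining gene Siglech below the filter. The 8 erythroid markers, of which 4 passed, summed to 384 to 4912 CPM across the CpG samples and to 404 to 3845 CPM across the unstimulated samples. Replicate 2 was high in both groups. Globin RNA was present: the beta-globin gene Beta-s had 8.46, 12.16 and 9.1 log2 CPM with CpG and 8.51, 11.76 and 8.80 without. The globin symbols Hbb-b1, Hbb-b2, Hba-a1 and Hba-a2 were at the no-read level. The part of other cells in the results was not tested.

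CpG raised most enzymes of the mevalonate and sterol steps, while the lysosomal cholesterol carriers Npc1 and Npc2 and the efflux pump Abca1, but not the efflux transporter Abcg1, were lowered. Of the 32 genes tested, 10 were raised (31.3%, against 15.8% of all genes tested) and 5 were lowered (15.6%, against 15.3% of all). All 10 raised genes were enzymes. The lowered genes were 1 enzyme (Pmvk), the lysosomal sterol carriers Npc1 and Npc2, and the LXR targets Abca1 and Mylip. By FDR under 0.05 alone, 16 were higher (50%, against 37.6% of all genes tested) and 10 were lower (31.3%, against 36.7%), and 6 did not pass. The 3 CpG samples all lay above the 3 unstimulated samples for 17 genes (39.1% of all genes tested did so) and all below for 9 (38.6% of all). The median log2FC was 0.25 over the 32 genes and 0.0033 over all genes tested.

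**Figure D2:**
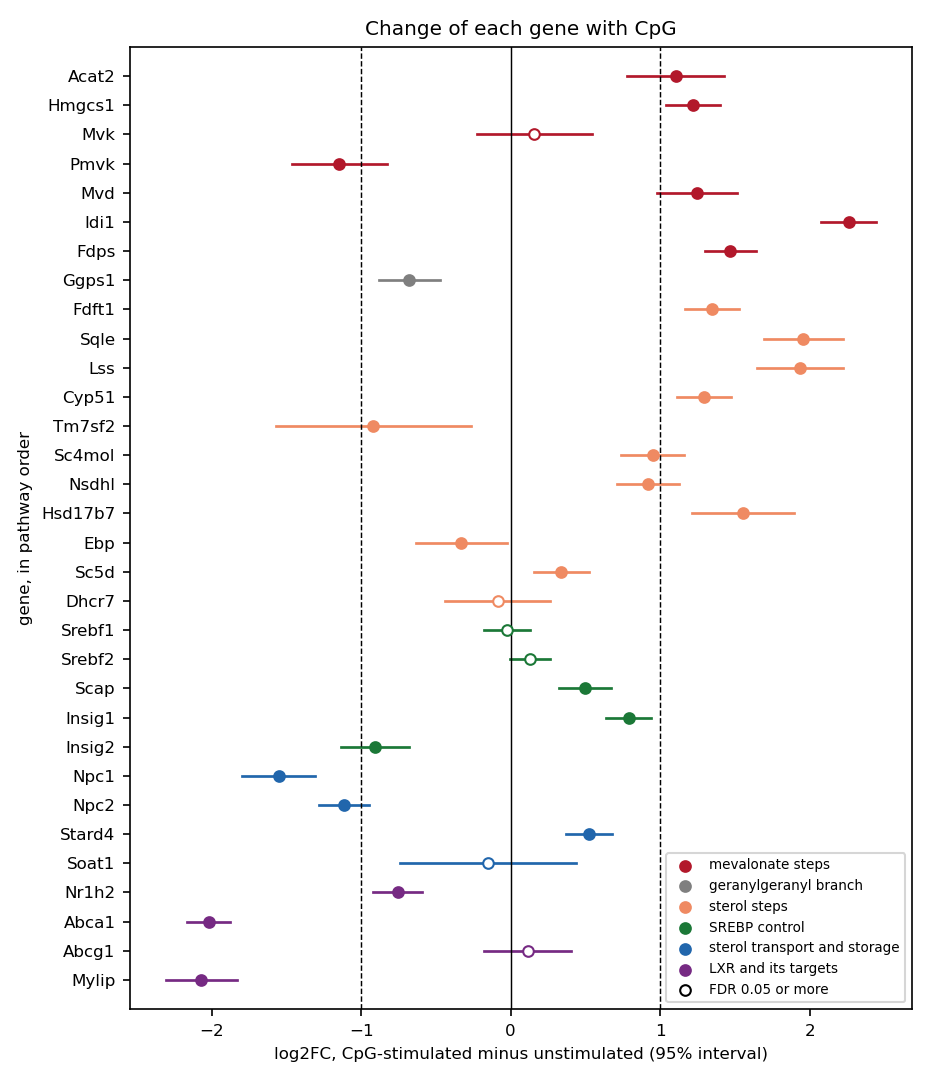
log2FC (CpG-stimulated minus unstimulated) of the 32 genes tested, in pathway order, with 95% intervals from limma; open circles have FDR of 0.05 or more and dashed lines mark a log2FC of 1 and -1. The 10 raised genes are all in the mevalonate and sterol steps, and the lowest values are those of Abca1 and Mylip.

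Of the 18 enzymes of the mevalonate and sterol steps, 10 were raised (55.6%, against 15.8% of all genes tested) and 1 was lowered (5.56%, against 15.3%). The median log2FC was 1.16. By FDR alone 13 were higher (72.2%, against 37.6%), 3 lower (16.7%, against 36.7%) and 2 did not pass. Their summed level was 1211, 1020 and 1065 CPM in the CpG samples and 490, 500 and 468 CPM in the unstimulated samples, a ratio of means of 2.26. The sum in every CpG sample was thus above that in every unstimulated sample.

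Of the 7 enzymes of the mevalonate steps, 5 were raised. Acat2, the cytosolic thiolase that makes acetoacetyl-CoA (chr17:12942890-12960747, GRCm38), stood at 4.51, 4.17 and 4.49 log2 CPM with CpG and at 3.23, 3.56 and 3.08 without. The groups did not overlap, and the log2FC was 1.10 (SE 0.14, 2.15-fold, FDR = 5.92e-05, limma). Acat2 shares 33.9% of its 75-base transcript stretches with other genes, mainly Acat3, so part of its count depends on how such reads were assigned.

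Hmgcs1, HMG-CoA synthase (chr13:119690379-119708260), had 8.09, 7.82 and 7.87 log2 CPM with CpG and 6.79, 6.68 and 6.65 without. It rose 2.33-fold (log2FC 1.22, SE 0.08, FDR = 4.4e-07, limma). Per kilobase of exon Hmgcs1 was the most abundant of the enzymes with CpG (53.0 CPM per kb), and without CpG its 22.8 CPM per kb was close to the 22.4 CPM per kb of Pmvk. Mvd, which decarboxylates mevalonate diphosphate (chr8:122433601-122443422), had 5.05, 4.91 and 4.92 log2 CPM with CpG and 3.98, 3.58 and 3.58 without. Its log2FC was 1.25 (SE 0.12, FDR = 5.7e-06, limma).

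Idi1 rose most among the 32 genes. This isomerase makes the reactive starter unit of isoprenoid chains (chr13:8885501-8892451). Its stretch above holds CCAAT boxes starting at -45 and -14 from the RefSeq start, both within the gene by the GENCODE position. Idi1 had 6.64, 6.4 and 6.41 log2 CPM with CpG and 4.19, 4.23 and 4.25 without, a 4.79-fold rise (log2FC 2.26, SE 0.08, FDR = 2.15e-08, limma). The groups were separated by far more than the spread within either. Idi1 ranked 267 of 11233 by log2FC, and 23.6% of its 75-base stretches also occur in other annotated transcripts.

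Fdps, which joins isoprenoid units to farnesyl diphosphate (chr3:89093588-89101959), had 6.61, 6.36 and 6.49 log2 CPM with CpG and 5.01, 5.02 and 5.03 without. Its log2FC was 1.47 (SE 0.08, 2.77-fold, FDR = 1.01e-07, limma), and 26.7% of its exon bases are also annotated to Gm43738 on the same strand.

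The kinases between Hmgcs1 and Mvd were not raised. Pmvk, phosphomevalonate kinase (chr3:89454541-89469013), had 4.09, 4.26 and 4.00 log2 CPM with CpG and 5.01, 5.60 and 5.16 without. All CpG samples were below all unstimulated samples, and Pmvk fell 2.21-fold (log2FC -1.15, SE 0.14, FDR = 4.21e-05, limma). Mvk, the mevalonate kinase acting just before it, overlapped between the groups at 2.59 ± 0.23 with CpG and 2.43 ± 0.22 log2 CPM without (mean ± SD, n = 3). Its log2FC of 0.16 had a 95% interval of -0.23 to 0.54 (FDR = 0.422, limma). Pmvk thus fell, while Hmgcs1 before it and Mvd after it rose.

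Ggps1, at the branch from farnesyl diphosphate to the geranylgeranyl tails of small GTPases, fell 1.60-fold, from 5.07 ± 0.13 to 4.39 ± 0.08 log2 CPM (SD, n = 3; log2FC -0.68, FDR = 7.62e-05, limma). Fdps, which supplies that branch and the squalene branch alike, rose.

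**Figure D3:**
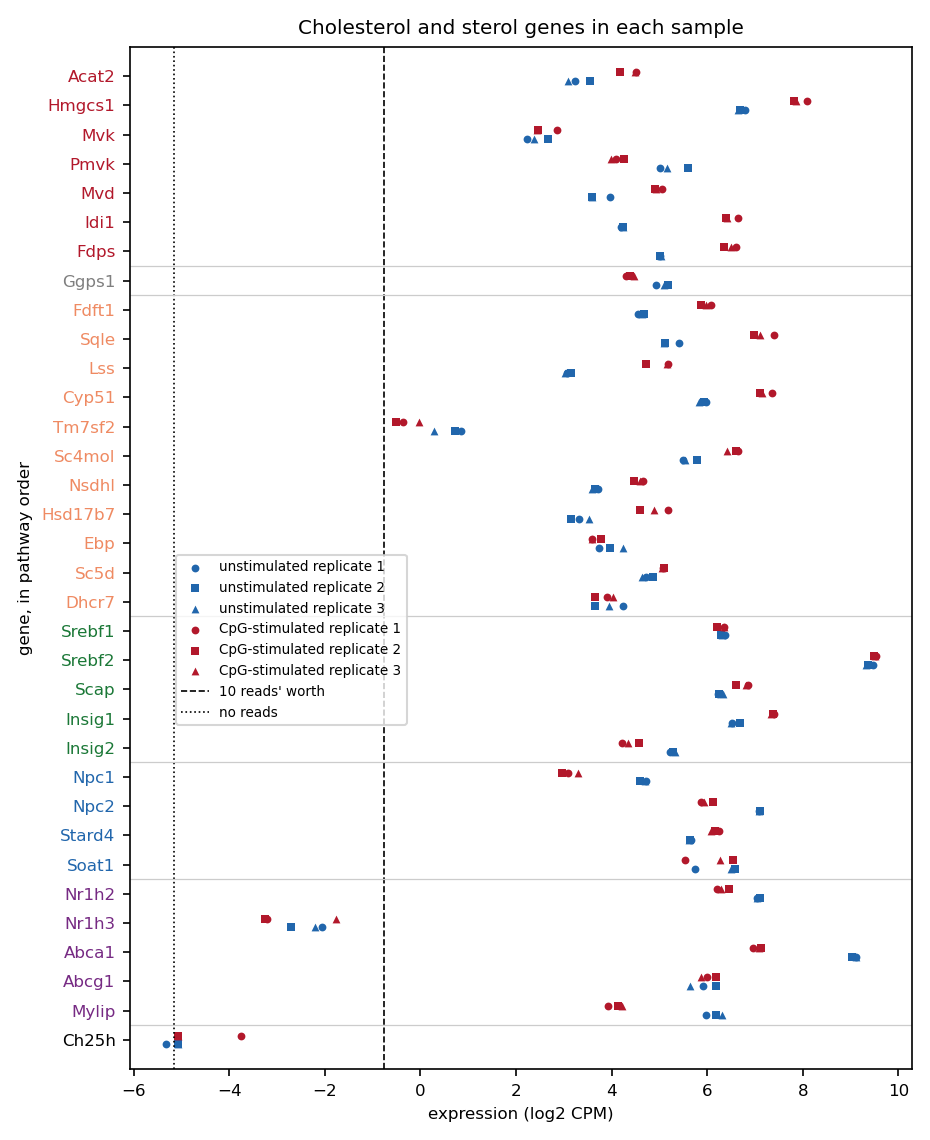
Level of each of the 34 genes (log2 CPM, horizontal) in each of the 6 samples, in pathway order. Red is CpG-stimulated, blue is unstimulated, and the marker shape gives the replicate number; the dashed line is 10 reads' worth and the dotted line the no-read level. Idi1, Sqle and Lss are separated to the right with CpG, Npc1, Abca1 and Mylip to the left, and Soat1 is low in replicate 1 of both groups.

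Of the 11 enzymes that act from squalene synthesis onward, 5 were raised and 0 lowered. Fdft1, squalene synthase (chr14:63145150-63179578), had 6.08, 5.86 and 5.97 log2 CPM with CpG and 4.56, 4.69 and 4.63 without. It rose 2.54-fold (log2FC 1.34, SE 0.08, FDR = 2.34e-07, limma). Ctsb overlaps 18.3% of its exon length on the opposite strand and had a log2FC of -1.33, the other direction.

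Sqle and Lss, which oxidise squalene and close it into lanosterol, had nearly equal rises. Sqle (chr15:59315077-59331192) had 7.41, 6.98 and 7.11 log2 CPM with CpG and 5.41, 5.12 and 5.09 without (log2FC 1.96, SE 0.12, 3.88-fold, FDR = 2.58e-07, limma). Lss (chr10:76531588-76557138) had 5.17, 4.72 and 5.15 log2 CPM with CpG and 3.07, 3.15 and 3.02 without (log2FC 1.94, SE 0.13, 3.82-fold, FDR = 4.44e-07, limma). An annotated antisense transcript, 4930483K19Rik, overlaps 3.53% of the Lss exon length and had a log2FC of 1.87. Whether reads were counted by strand is not stated, so within that overlap reads from Lss and its antisense partner cannot be told apart.

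Cyp51, the lanosterol demethylase (chr5:4081145-4104746), had 7.36, 7.11 and 7.16 log2 CPM with CpG and 5.98, 5.94 and 5.83 without, and rose 2.45-fold (log2FC 1.29, SE 0.08, FDR = 2.91e-07, limma). Hsd17b7, the sterol ketoreductase (chr1:169949535-169969241), had 5.18, 4.59 and 4.89 log2 CPM with CpG and 3.33, 3.15 and 3.52 without, a 2.93-fold rise (log2FC 1.55, SE 0.15, FDR = 7.08e-06, limma). In both genes the groups did not overlap.

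Sc4mol and Nsdhl, which remove methyl groups from the sterol ring together with Hsd17b7, rose by just less than the threshold of 1. Sc4mol went from 5.61 ± 0.16 to 6.56 ± 0.11 log2 CPM (log2FC 0.95, FDR = 7.41e-06, limma) and Nsdhl from 3.66 ± 0.06 to 4.58 ± 0.10 log2 CPM (log2FC 0.92, FDR = 8.98e-06, limma; SD, n = 3).

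The last steps differed less between the groups. Sc5d, a sterol desaturase, rose from 4.74 ± 0.12 to 5.08 ± 0.03 log2 CPM (SD, n = 3; log2FC 0.34, FDR = 0.00391, limma). Dhcr7, a terminal reductase, had 3.86 ± 0.19 with CpG and 3.95 ± 0.30 log2 CPM without, and its log2FC of -0.09 had an interval of -0.44 to 0.26 (FDR = 0.631, limma). Ebp, a sterol isomerase, overlapped between groups at 3.65 ± 0.10 with CpG and 3.98 ± 0.26 log2 CPM without (log2FC -0.33, FDR = 0.0483, limma), and this call was lost without any 1 of 4 samples (log2FC -0.20 and FDR = 0.200 without unstimulated replicate 3).

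Tm7sf2, a sterol reductase whose reaction Lbr also catalyses, was just inside the filter on low values at 12.0 to 31.6 reads' worth. It had -0.36, -0.51 and -0.03 log2 CPM with CpG and 0.85, 0.73 and 0.28 without (log2FC -0.92, SE 0.29, FDR = 0.0158, limma). The FDR was 0.0630 without unstimulated replicate 1 and 0.0548 without unstimulated replicate 2. With log2(CPM + 1) in place of log2 CPM its log2FC was -0.49 (FDR = 0.0120, limma). The nearest gene outside the filter was Nr1h3, far below it at 1.38 to 4.70 reads' worth.

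Of the 16 genes outside the enzyme steps, 14 were tested, and none of these was raised (against 15.8% of all genes tested). Lowered were 4 (28.6%, against 15.3%). By FDR alone 3 were higher (21.4%, against 37.6%) and 7 lower (50%, against 36.7%), and the median log2FC was -0.42.

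The transcripts of both SREBP genes differed little, with 95% intervals of the log2FC that stayed between -0.18 and 0.27. Srebf2 (chr15:82147181-82205379), encoding SREBP2, had 9.54, 9.49 and 9.51 log2 CPM with CpG and 9.46, 9.36 and 9.33 without. The groups did not overlap but the difference was small (log2FC 0.13, interval -0.01 to 0.27, FDR = 0.0779, limma), and with the replicate number as a block its FDR was 0.0435. Srebf1 (chr11:60199089-60222581), whose products favour fatty acid synthesis, had 6.36, 6.2 and 6.36 log2 CPM with CpG and 6.38, 6.30 and 6.32 without (log2FC -0.02, interval -0.18 to 0.13, FDR = 0.765, limma). Per kilobase of exon, Srebf2 stood at 93.0 CPM per kb and Srebf1 at 14.3 CPM per kb in unstimulated cells. RNA levels do not show how much of either protein was processed.

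Scap rose from 6.27 ± 0.06 to 6.76 ± 0.13 log2 CPM (SD, n = 3; log2FC 0.50, FDR = 0.000214, limma). The Insig genes, both retaining Scap in the endoplasmic reticulum, moved apart. Insig1 (chr5:28071363-28078662), itself a known SREBP target, had 7.39, 7.37 and 7.34 log2 CPM with CpG and 6.53, 6.70 and 6.51 without, a 1.73-fold rise (log2FC 0.79, SE 0.07, FDR = 2.48e-06, limma).

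Insig2 (chr1:121304353-121332589) had 4.21, 4.57 and 4.34 log2 CPM with CpG and 5.22, 5.29 and 5.34 without, a 1.88-fold fall (log2FC -0.91, SE 0.10, FDR = 1.74e-05, limma). Insig1 was the more abundant per kilobase of exon in both groups, at 53.4 against 5.98 CPM per kb with CpG and at 30.9 against 11.2 CPM per kb without.

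Transcripts for lysosomal cholesterol export were lower with CpG. Npc1, which passes cholesterol through the lysosomal membrane (chr18:12189692-12236400), had 3.10, 2.97 and 3.30 log2 CPM with CpG and 4.72, 4.59 and 4.70 without, a 2.93-fold fall (log2FC -1.55, SE 0.11, FDR = 6.81e-07, limma). Npc2, the soluble protein that hands cholesterol to Npc1 (chr12:84754562-84773152), had 5.88, 6.13 and 5.93 log2 CPM with CpG and 7.08, 7.10 and 7.10 without, a 2.16-fold fall (log2FC -1.11, SE 0.07, FDR = 4.77e-07, limma). The unstimulated samples were nearly equal in both genes, and all CpG samples lay below them. Of the 6 myeloid markers tested, 2 were lowered as well (Csf1r, log2FC -1.61, and Cd14, log2FC -1.73). Both passed the filter only through the unstimulated samples, so that the filter itself favoured a fall. By FDR alone 3 were lower, the third being Mpeg1 (log2FC -0.31, FDR = 0.0140, limma), and 1 was higher (Emr1, log2FC 0.83). Lyz2 had a log2FC of -0.21 (FDR = 0.649, limma). The part of myeloid cells in the lower lysosomal and efflux genes was not tested.

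Stard4, a cytosolic sterol carrier, rose from 5.64 ± 0.03 to 6.16 ± 0.08 log2 CPM (SD, n = 3; log2FC 0.52, FDR = 5.43e-05, limma). Soat1, which esterifies cholesterol for storage, was low in replicate 1 of both groups: 5.53, 6.54 and 6.28 log2 CPM with CpG and 5.75, 6.57 and 6.49 without. Its log2FC of -0.15 did not pass (SE 0.26, FDR = 0.616, limma), and with the replicate number as a block the FDR was 0.0365. Within each number the CpG sample was the lower.

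The LXR targets Mylip and Abca1 fell furthest of the 32 genes. Abca1, the cholesterol efflux pump (chr4:53030787-53159895), had 6.96, 7.14 and 7.08 log2 CPM with CpG and 9.11, 9.02 and 9.11 without, a 4.05-fold fall (log2FC -2.02, SE 0.06, FDR = 1.4e-08, limma). Mylip, the ubiquitin ligase that sends lipoprotein receptors to degradation (chr13:45389742-45412022), had 3.93, 4.14 and 4.21 log2 CPM with CpG and 5.99, 6.19 and 6.32 without, a 4.20-fold fall (log2FC -2.07, SE 0.11, FDR = 9.35e-08, limma). In the order of log2FC from the lowest, Mylip ranked 420 and Abca1 456 of 11233.

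Abcg1, the other efflux transporter and also an LXR target, overlapped between the groups at 6.02 ± 0.15 with CpG and 5.91 ± 0.27 log2 CPM without (SD, n = 3; log2FC 0.11, interval -0.18 to 0.40, FDR = 0.443, limma). The 95% interval of the log2FC of Abca1 did not meet that of Abcg1.

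Of the receptors, Nr1h2 (LXRβ, chr7:44549616-44553951) had 6.2, 6.45 and 6.29 log2 CPM with CpG and 7.05, 7.12 and 7.04 without, a 1.69-fold fall (log2FC -0.75, SE 0.07, FDR = 6.59e-06, limma). Nr1h3 (LXRα, chr2:91184061-91202834) had -3.21, -3.24 and -1.77 log2 CPM with CpG and -2.07, -2.70 and -2.20 without, and was not tested. Per kilobase of exon, Nr1h2 stood at 40.1 CPM per kb and Nr1h3 at 0.0796 CPM per kb in unstimulated cells.

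Ch25h, which makes an oxysterol from cholesterol (chr19:34473778-34475164), had -3.74, -5.06 and -5.06 log2 CPM with CpG and -5.33, -5.06 and -5.06 without. All 6 values are under 3 reads' worth, so no fold is given, and Ch25h was not detectable at this depth.

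**Figure D4:**
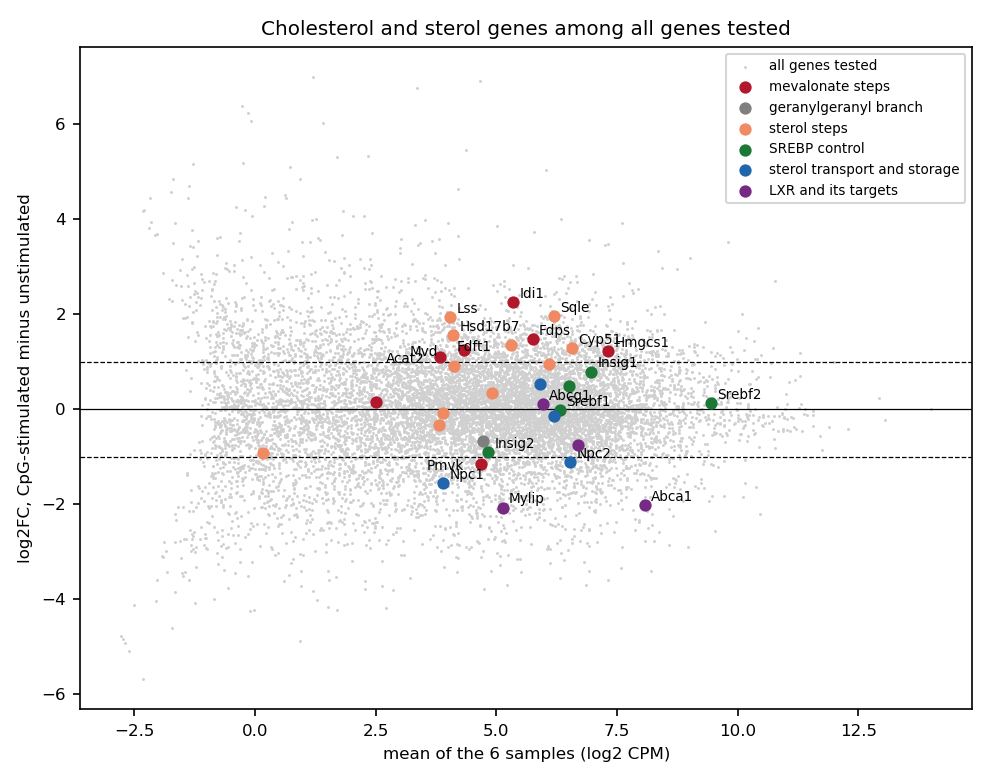
log2FC (CpG-stimulated minus unstimulated) against the mean level over the 6 samples (log2 CPM) for the 11233 genes tested (grey) and the 32 cholesterol genes (coloured by role). Dashed lines mark a log2FC of 1 and -1. Idi1 at 2.26, Abca1 at -2.02 and Mylip at -2.07 lie farthest from 0 among the coloured points, while many grey points lie beyond them.

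Genes that work beside the pathway were taken from 7 lists holding 96 genes, of which 82 were tested. In all, 9 were raised (11.0%, against 15.8% of all genes tested) and 17 lowered (20.7%, against 15.3%), with a median log2FC of -0.15. The counts of the single lists below are to be read beside the same shares of all genes tested, 15.8% raised and 15.3% lowered. Of the lowered genes, Acss2, Gramd1c and Cyp27a1 had at least 2 of their 3 CpG values below 10 reads' worth and passed the filter through the unstimulated samples, where they were high, so the filter favoured their fall. With 10 reads' worth required in every sample, 14 genes were lowered.

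Of 9 tested genes in other sterol synthesis, 3 were raised and 1 lowered (median log2FC 0.31). Tmem97, an endoplasmic reticulum protein that binds NPC1, went from 3.78 ± 0.22 to 6.27 ± 0.24 log2 CPM (SD, n = 3; log2FC 2.50, FDR = 1.5e-07, limma), a larger log2FC than that of Idi1. Aacs, which activates acetoacetate for lipid synthesis, had a log2FC of 1.24, and 0610007P14Rik (Erg28), a scaffold for the enzymes that remove methyl groups from sterols, one of 1.03. Cyb5r3, which feeds electrons to sterol oxidation, had a log2FC of -1.26.

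Of 15 tested genes that attach or extend isoprenoids, 2 were raised and 0 lowered (median 0.22). Pdss1, which makes the tail of ubiquinone, had a log2FC of 2.24, and Nus1, a subunit of the dolichol-making enzyme, one of 1.10.

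Of 13 genes for SREBP cleavage and turnover in the endoplasmic reticulum, 0 were raised and 3 lowered (median 0.11). Erlin1 had a log2FC of -1.73, and the ubiquitin ligases Syvn1 and Rnf145 each had one of -1.14. The SREBP proteases, named after their values were seen, differed in direction: Mbtps2 had a log2FC of 0.67 (FDR = 1.2e-05, limma) and Mbtps1 one of -0.45 (FDR = 0.000201, limma).

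Of 14 tested SREBP1-linked genes of fatty acid synthesis, 2 were raised and 3 lowered (median -0.25). Fasn, fatty acid synthase, rose from 8.47 ± 0.18 to 9.71 ± 0.32 log2 CPM (SD, n = 3; log2FC 1.23, FDR = 2.99e-05, limma), and the acetyl-CoA carboxylase Acacb had a log2FC of 1.84. The desaturase Scd2 had a log2FC of -1.62, Acss2 one of -1.34 (FDR = 0.0472, limma) and Lpin1 one of -1.13. The fatty acid list held genes in both directions, as did all genes tested (15.8% raised and 15.3% lowered).

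Of 17 tested genes of sterol transport and sterol esters, 0 were raised and 5 lowered (median -0.59). Osbpl5, an oxysterol-binding protein, had a log2FC of -2.15, and Lipa, the lysosomal lipase that frees cholesterol from its esters, one of -1.44. Gramd1c, a sterol carrier at membrane contacts, had -1.02, -3.23 and -1.23 log2 CPM with CpG, down to 1.39 reads' worth, and 0.17, 0.23 and 0.23 without. Lipa was thus lower along with Npc1 and Npc2, which act after it in the lysosome.

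Of 9 tested LXR-linked genes, 1 was raised and 3 were lowered (median -0.38). Smpdl3a went from 4.14 ± 0.14 to 1.39 ± 0.49 log2 CPM (SD, n = 3; log2FC -2.76, FDR = 1.62e-06, limma), the phospholipid transfer protein Pltp had a log2FC of -1.62, and the coactivator Ncoa1 one of -1.32. Arl4c, a small GTPase and LXR target, had a log2FC of 1.64, the other direction.

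Of 5 tested genes that make, break down or sense oxysterols, 1 was raised and 2 were lowered (median -0.12). Hsd3b7 had a log2FC of 1.56 and Cyp39a1 one of -2.54. Cyp27a1 had -1.16, -1.20 and -1.21 log2 CPM with CpG and 0.67, 1.02 and 0.25 without. Gpr183, the oxysterol receptor EBI2 that positions B cells and was named after its values were seen, went from 8.07 ± 0.09 to 8.79 ± 0.13 log2 CPM (SD, n = 3; log2FC 0.72, FDR = 1.75e-05, limma).

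**Figure D5:**
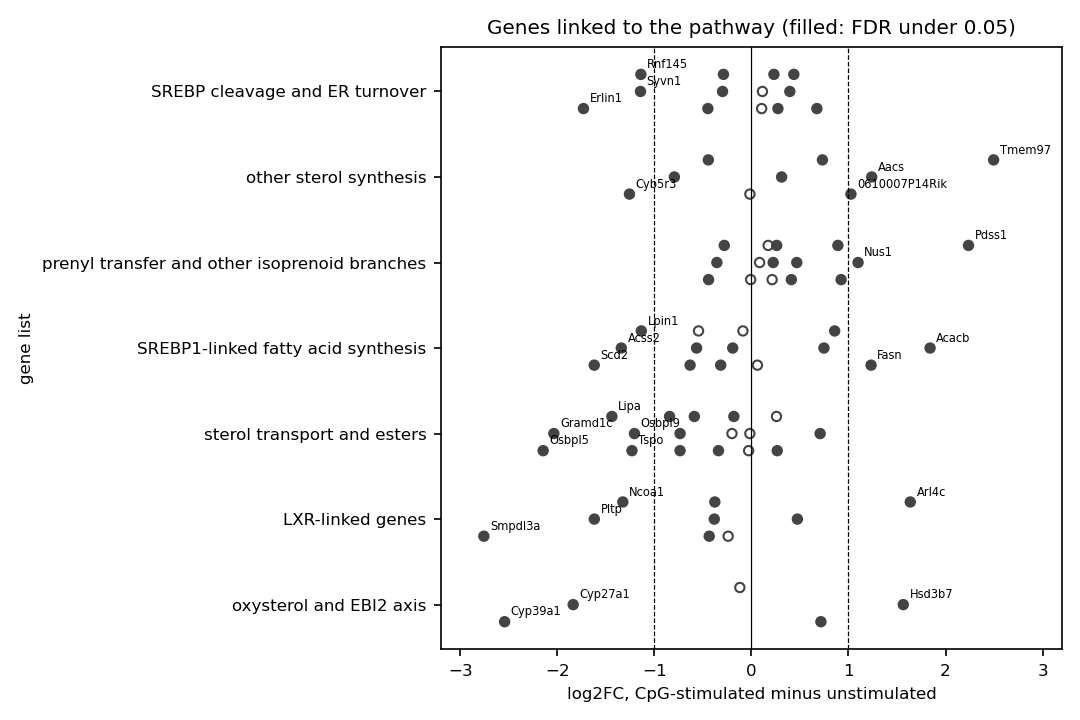
log2FC (CpG-stimulated minus unstimulated) of the tested genes in the 7 linked lists, each point a gene, filled where FDR is under 0.05; vertical jitter within a list has no meaning. Dashed lines mark a log2FC of 1 and -1, and genes past them are named. Tmem97 lies farthest right and Smpdl3a farthest left, and neither the sterol transport list nor the SREBP cleavage list has a gene past 1.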

How the data were processed

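RNA from bead-purified splenic B cells was sequenced in 6 samples, 3 CpG-stimulated and 3 unstimulated. Per the labels and the study's methods, the authors trimmed reads (Trim Galore 0.6.5, FastQC 0.11.7), aligned them to mm10 (STAR 2.6.1a), counted genes (featureCounts of Subread 2.0.1) and applied voom with quantile normalisation. The deposited values are log2 CPM with an offset of 0.5 reads, and no raw counts were used here. Column sums were 992384 to 1012396 CPM, so depth per library is hidden and only a common library of 17.8 M reads can be read from the no-read level. In 4421 genes a value lies below that level in some sample. In 254 cases a single sample stood above its partner of the same number by the step of 1 read, while the samples of the other numbers were level. That partner lay below the samples of the other numbers. As the gap was still the step of 1 read, both samples of that number were shifted down alike. The shift, taken from the samples of the other numbers, was 0.167 of the step (median). Such a shift by number leaves log2FC as it was but alters the spread between replicates.

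From these values limma 3.58.1 (R 4.3.3, lmFit, eBayes with trend) tested CpG against unstimulated, with no term for the replicate number. The test covered the 11233 genes above 10 reads' worth in at least 3 samples, with Benjamini-Hochberg adjustment. The fit was also tried on simulated data with noise drawn independently for each sample. The samples here correlate by number, as given below, so no error rate is taken from that trial. Alternatives were no filter, 10 reads' worth in every sample, no trend, log2(CPM + 1), median centring, a test against a log2FC of 1 (treat), a block on replicate number and leaving out each sample. Deviations from group means correlated at 0.435, 0.224 and 0.300 between samples of the same number and at -0.281 to 0.0279 otherwise. The numbers were therefore taken to pair the samples in the fit with a block. All other SE, interval and FDR values are from the fit without this pairing. How the shift above bears on these correlations was not tested. The genes, lists and tests were chosen with earlier results of these data known. Values per sample are given for raised and lowered genes, the SREBP, Insig and LXR genes, Ch25h and genes at the filter. From each list at most 3 raised and 3 lowered genes are named by size, and some genes of these lists are not reported here. Positions and overlaps are from GENCODE M21 (GRCm38), promoters from RefSeq.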

Additional observations from a re-analysis of the deposited data

How the results depend on the processing

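The counts of raised genes (10), of higher genes (16) and of lower genes (10) by FDR stayed within 1.5 times under every alternative run. With treat against a log2FC of 1, lowered cholesterol genes numbered 3 in place of 5, raised genes of the linked lists 4 in place of 9, and lowered genes of the lists 8 in place of 17, as that test asks for a change beyond 1 and not only an estimate beyond it. Leaving out each sample in turn gave 9 to 11 raised, 4 to 6 lowered, 16 to 16 higher and 8 to 10 lower cholesterol genes, and 8 to 11 raised and 15 to 17 lowered genes of the lists. With the replicate number as a block, 10 genes were raised, 5 lowered, 17 higher and 11 lower by FDR, and 9 and 17 genes of the lists were raised and lowered; the added calls were Srebf2 and Soat1, and no other call of a cholesterol gene changed. Of 384 values for single genes, 368 kept direction and call, although with log2(CPM + 1) the log2FC of Tm7sf2 went from -0.92 to -0.49. With 10 reads' worth required in every sample, 14 genes of the lists were lowered. The 8 lost calls were those of Tm7sf2 and Ebp, the latter also without the filter (FDR = 0.203, limma) and without the trend (FDR = 0.0778, limma). Sign changed in 4 genes without a call, each time by leaving out 1 sample: the log2FC ranged from -0.24 to 0.063 for Dhcr7, -0.050 to 0.029 for Srebf1, -0.41 to 0.14 for Soat1 and -0.021 to 0.25 for Abcg1. Genes near the filter, such as Tm7sf2, are limited by depth, and Nr1h3 and Ch25h could not be compared.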
